A study of Mus musculus with 16 samples.

Results

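The effect of losing fatty acid transport protein 2 (FATP2, encoded by Slc27a2) was examined in whole liver of female mice. The members were the 8 female libraries of 16 in the series: 4 Fatp2-/- mice (black631, black643, black634 and black652) and 4 control mice (black656, black659, black676 and black684). All were 11 weeks of age and had been kept on standard chow, and the remaining 8 libraries came from males of the same genotypes. The Fatp2-/- mice carry a null allele made in the SV129 strain, in which a neomycin cassette replaces part of the early exons of the gene in every cell of the body, and which was then back-crossed into C57BL/6. The control mice were C57BL/6 animals bought from a supplier and are not described as littermates, so genotype cannot be told apart from colony and from any SV129 sequence that remains. Expression was measured by RNA-Seq of polyadenylated RNA as reads per gene, given here as CPM. For CPM, the counts of a library are divided by its total times its TMM normalization factor. In whole tissue, fewer cells of a type and less RNA per cell cannot be told apart.

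FATP2 takes up long-chain fatty acids and joins very long-chain fatty acids and bile acid precursors to coenzyme A. In liver, fatty acids are burned in mitochondria and peroxisomes, hydroxylated at their far end by the CYP4A enzymes in the endoplasmic reticulum, or stored as triglyceride in lipid droplets. The nuclear receptor PPAR alpha is activated by fatty acids and drives many genes of these routes. Female and male mouse livers also differ in many genes, largely through the pattern of growth hormone secretion acting on the transcription factor STAT5.

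A pair of libraries stood apart. Total counts were 16755632 to 18237325 in the Fatp2-/- libraries and 14145523 to 15808320 in 3 of the control libraries, while the control library black684 held 10657034 counts. That library nevertheless had a count for 27810 genes, against 17655 to 21862 in the other 15 libraries of the series, and its correlation with the other female libraries was 0.933 to 0.968 on log2 CPM. The Fatp2-/- library black652 held 298 CPM summed over 16 skeletal muscle markers, against 1.58 to 21.7 CPM in the other 7. Of 10 hepatocyte markers, 9 were above 10 CPM in every female library, with albumin at 38008 to 85069 CPM, and Cyp3a11 was at most 1.32 CPM. Xist, the RNA that coats the inactive X chromosome, was at 463 to 1452 CPM in the females and at most 1.51 CPM in the males, on CPM normalized over all 16 libraries.

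Slc27a2 itself was at 137, 117, 80.1 and 158 CPM in the Fatp2-/- livers (black631, black643, black634 and black652, the order used throughout) and at 545, 604, 645 and 551 CPM in the control livers (black656, black659, black676 and black684). Every Fatp2-/- liver lay below every control liver. On the log2 scale the change was -2.25 (S.E. 0.22, edgeR adjusted p = 0.000632), and -2.42 without black652 and black684. Reads are counted over the whole gene (MGP_C57BL6NJ_G0026861, chromosome 2, 133905059 to 133941968 on the C57BL/6NJ annotation of the table), so exons outside the replaced part also give counts.

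Loss of FATP2 increased 64 of the 13601 genes tested and decreased 26, which is 0.471% and 0.191% of the genes (edgeR quasi-likelihood test, Benjamini-Hochberg adjusted p of at most 0.05). The genes that increased included fatty acid oxidation and omega-hydroxylation enzymes, fatty acid uptake proteins and lipid droplet genes, and those that decreased included the STAT5 target Cish, the sulfotransferase Sult5a1 and interferon regulatory factors. The median log2 fold change was 1.61 among the increased genes and -1.61 among the decreased genes, against -0.02 over all genes tested. Of the 64 increased genes, 56 changed by at least 1 on the log2 scale and 27 by at least 2, and of the 26 decreased genes 22 and 10 did so. All 90 had every Fatp2-/- value on one side of every control value, a pattern found for 3.72% (above) and 3.24% (below) of all genes tested. A log2 fold change above 0 was found for 47.2% of the 13601 genes tested. Counts of members in the gene lists below are to be read beside these shares.

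**Figure D1:**
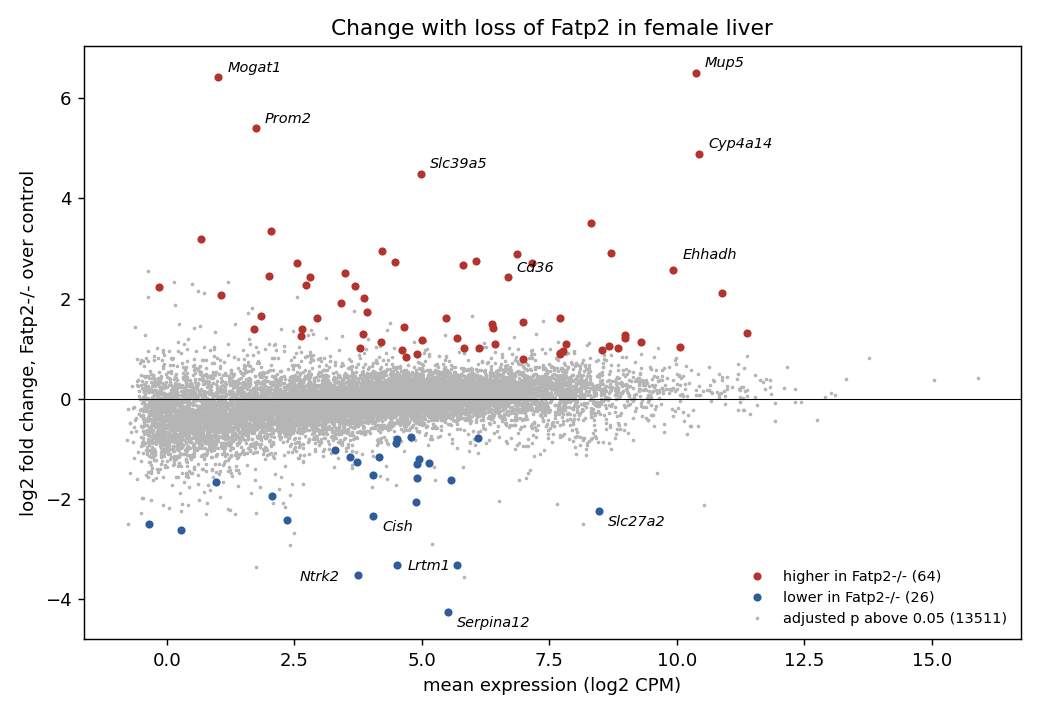
Each point is a gene, placed by its mean expression in the 8 female livers (log2 CPM, horizontal) and its log2 fold change, Fatp2-/- over control (vertical). Red marks the 64 genes that increased, blue the 26 that decreased and grey the others; the increased genes reach 6.51 (Mup5) and the decreased genes -4.27 (Serpina12).

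The direction of all 90 changes was the same without black652 and black684, and the log2 fold changes moved by a median of 0.08 and at most 0.77. With 3 mice a group, 46 genes increased (0.34% of 13522 tested) and 19 decreased (0.141%), among them 41 and 15 of the original 64 and 26. Leaving out 1 library at a time lowered the counts most for black643, to 31 increased and 15 decreased genes. The counts also fell by more than 1.5 times for increased genes without black631 (34), black634 (36) or black656 (32), and for decreased genes without black634 (17), black652 (16) or black656 (17). A group of 38 genes, 28 increased and 10 decreased, passed in every one of these fits, and the account below starts with them. The other 52 failed when at least 1 library was left out.

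Genes of fatty acid omega-hydroxylation increased in every Fatp2-/- liver. Cyp4a14, which hydroxylates fatty acids at the omega carbon, was at 2431, 3881, 2108 and 2284 CPM in Fatp2-/- livers and at 82.3, 146, 40.1 and 91.9 CPM in control livers (log2 fold change 4.89, S.E. 0.41; edgeR adjusted p = 0.000241). Cyp4a10, of the same family, stood at 543, 862, 481 and 469 CPM in Fatp2-/- livers against 52.4, 72.5, 45.5 and 36.4 CPM in control livers (log2 fold change 3.51, S.E. 0.29). Cyp4a32 reached 194, 269, 178 and 182 CPM in Fatp2-/- livers against 27.6, 44.2, 14.6 and 25 CPM in controls (log2 fold change 2.88, S.E. 0.31). In each of these genes the lowest Fatp2-/- value lay well above the highest control value. Per gene length, in the FPKM values of the authors, Cyp4a14 was at 1680 ± 464, Cyp4a10 at 288 ± 80.8 and Cyp4a32 at 179 ± 32.8 in Fatp2-/- livers, against 65.2 ± 34.6, 28.4 ± 9.43 and 27.8 ± 13.5 in control livers (S.D., n = 4). The unnamed gene MGP_C57BL6NJ_G0029026, which lies inside the model of Cyp4a10, also increased (log2 fold change 2.52, S.E. 0.38). These genes are near-identical copies in places and their models overlap, so the division of reads among them is uncertain. Aldh3a2, which oxidizes the fatty aldehydes that follow omega-hydroxylation, was at 708 ± 115 CPM in Fatp2-/- livers and 305 ± 46 CPM in control livers (log2 fold change 1.22, edgeR adjusted p = 0.0161), with adjusted p of up to 0.0753 when black631, black643, black656 or black659 was left out. Of 12 members of the Cyp4 and omega-oxidation list that were tested, 4 increased and 0 decreased, and the median log2 fold change was 0.26; the Cyp4f genes that followed by p, such as Cyp4f15 (0.57, edgeR adjusted p = 0.308), did not pass.

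Peroxisomal beta-oxidation, which shortens very long-chain and dicarboxylic fatty acids, was raised at several steps. Ehhadh, the bifunctional enzyme of the middle steps, was at 1368, 2209, 1763 and 1364 CPM in Fatp2-/- livers and at 279, 347, 312 and 185 CPM in control livers (log2 fold change 2.58, S.E. 0.26, edgeR adjusted p = 0.000651). Acaa1b, a thiolase of the last step, was at 3350, 3403, 3123 and 2378 CPM in Fatp2-/- livers and at 621, 980, 840 and 390 CPM in controls (log2 fold change 2.11, S.E. 0.29). Both passed in every fit with a library left out. Abcd3, a peroxisomal half-transporter, Ech1, Crat, Hsd17b4 and Acaa1a also increased by 0.79 to 1.41, and each failed when any of at least 4 single libraries was left out, with adjusted p of up to 0.196. Of 28 tested genes of this list 8 increased and 0 decreased. In 27 the log2 fold change was above 0 (47.2% over all genes tested), and the median was 0.51. Without black652 and black684, 3 of the 28 increased and the median was 0.48.

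Mitochondrial beta-oxidation genes moved by smaller steps. Decr1, which reduces the double bonds of unsaturated intermediates, was at 301, 289, 292 and 276 CPM in Fatp2-/- livers and at 135, 185, 134 and 144 CPM in control livers (log2 fold change 0.95, S.E. 0.16, edgeR adjusted p = 0.0231). Acadm, the medium-chain acyl-CoA dehydrogenase, and Acadl, the long-chain one, increased by 0.97 and 0.90 on the log2 scale (edgeR adjusted p = 0.0357 and 0.0368). None of the 3 passed without black652 and black684, where their adjusted p was 0.0617, 0.102 and 0.0577, and each failed when any of at least 6 single libraries was left out. Of the 23 tested genes 3 increased and 22 had a log2 fold change above 0 (47.2% over all genes tested), with a median of 0.79. In 16 every Fatp2-/- liver was above every control liver (3.72% over all genes tested). Eci1 (0.91, edgeR adjusted p = 0.0523) and Cpt2 (0.99, edgeR adjusted p = 0.0667) did not pass. In ketogenesis 0 of 7 genes passed in edgeR, against 4 with an unadjusted p under 0.05, 4 in DESeq2 and 0 in limma-voom. Over all 13601 genes tested these numbers were 1542, 287 and 86.

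Among the tested genes of fatty acid uptake and activation some increased, and only the targeted gene, Slc27a2, decreased. Cd36, the fatty acid translocase of the plasma membrane, was at 181, 202, 171 and 138 CPM in Fatp2-/- livers and at 41.1, 27.6, 25 and 35.1 CPM in control livers (log2 fold change 2.43, S.E. 0.20, edgeR adjusted p = 0.000241). Slc27a1, which encodes FATP1, was at 87, 72, 52.7 and 55.5 CPM in Fatp2-/- livers and at 20.7, 16, 26.9 and 23.4 CPM in controls (log2 fold change 1.62, S.E. 0.21). Acsl1, the main long-chain acyl-CoA synthetase of liver, was at 1434 ± 160 CPM in Fatp2-/- livers and 700 ± 128 CPM in control livers (log2 fold change 1.03, edgeR adjusted p = 0.0431, and 0.102 without black652 and black684), and it failed without any single library but black684, with adjusted p of up to 0.183. Per gene length, the FPKM of the 6 Slc27 genes in Fatp2-/- livers was 1064 ± 192 for Slc27a5, 81.5 ± 27 for Slc27a2, 27.9 ± 1.87 for Slc27a4, 19.1 ± 4.74 for Slc27a1, 1.36 ± 0.48 for Slc27a3 and 0.145 ± 0.0696 for Slc27a6. In control livers it was 865 ± 344 for Slc27a5, 425 ± 33.2 for Slc27a2, 20.2 ± 8.90 for Slc27a4, 6.86 ± 1.24 for Slc27a1, 1.86 ± 0.584 for Slc27a3 and 0.219 ± 0.0797 for Slc27a6. Slc27a5, the bile acid-CoA ligase, overlapped between the groups and did not pass (log2 fold change 0.41, edgeR adjusted p = 0.623). Of 25 tested genes of uptake and activation 3 increased and 1, Slc27a2, decreased. Acot1, a cytosolic thioesterase that releases fatty acids from coenzyme A, was at 224, 280, 235 and 257 CPM in Fatp2-/- livers and at 22, 56.2, 21.3 and 52.4 CPM in control livers (log2 fold change 2.71, S.E. 0.33), though it has close copies that could share its reads.

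**Figure D2:**
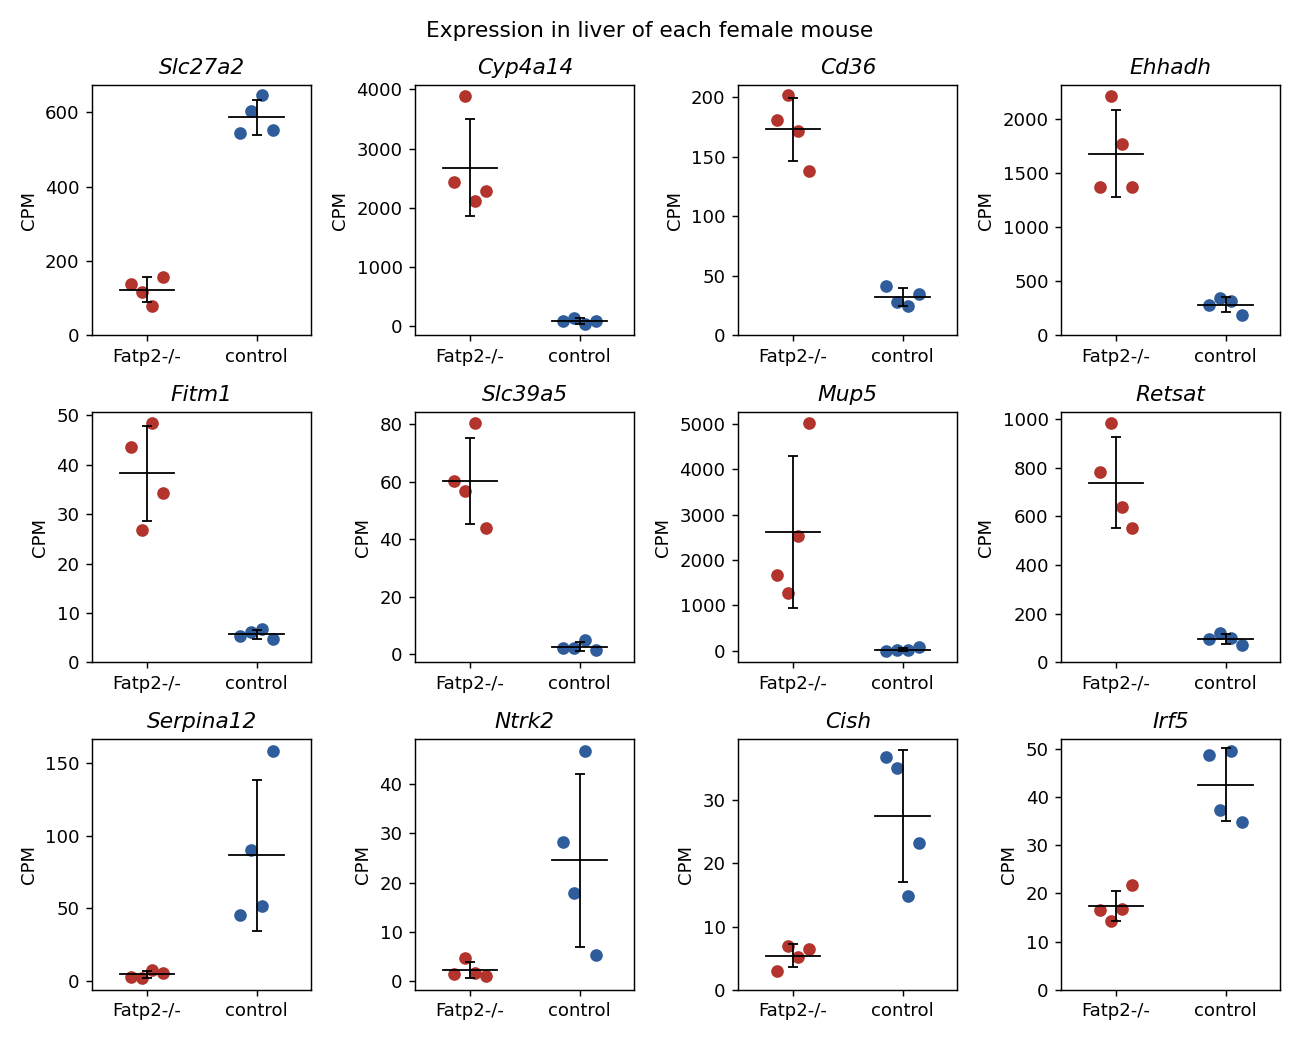
Each point is the CPM of 1 female mouse, Fatp2-/- in red on the left and control in blue on the right of each panel, with a bar at the mean and error bars of 1 S.D. (n = 4); each panel has its own linear axis. In all 12 genes the groups do not overlap, and in Ntrk2 and Serpina12 the control mice spread widely, from 5.22 to 46.9 CPM and from 45.2 to 159 CPM.

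Genes of triglyceride assembly and lipid droplets followed. Fitm1, a protein of the endoplasmic reticulum that promotes droplet formation and is known mostly from muscle, was at 43.5, 26.7, 48.4 and 34.3 CPM in Fatp2-/- livers and at 5.34, 6.12, 6.76 and 4.65 CPM in control livers (log2 fold change 2.74, S.E. 0.21, edgeR adjusted p = 0.000241). In black652, the library with skeletal muscle RNA, it lay within the range of the other 3 Fatp2-/- livers. Mogat1, which makes diacylglycerol from monoacylglycerol, was at 3.74, 5.35, 3.61 and 1.98 CPM in Fatp2-/- livers and had 2 counts in all in the control livers, against 240 counts in the Fatp2-/- livers. The ratio of its summed, normalized counts was 104, with a 95% interval of 28.6 to 866 for counting error alone. Hsd17b11, a droplet-associated dehydrogenase, was at 333, 372, 299 and 256 CPM in Fatp2-/- livers and at 106, 106, 132 and 66.5 CPM in control livers (log2 fold change 1.62, S.E. 0.22). Of 31 tested genes 5 increased and 28 had a log2 fold change above 0 (47.2% over all genes tested), with a median of 0.45. Among the 5 were Abhd6 and Agpat9, which increased by 1.21 and 1.40. Each failed when any of 5 single libraries was left out, with adjusted p of up to 0.0867 and 0.153. Plin2, the main droplet coat protein of liver, was at 532 to 733 CPM in Fatp2-/- livers and 252 to 807 CPM in control livers and did not pass (edgeR adjusted p = 0.644); it was named after its values were seen.

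Of 67 tested genes in a list of other known PPAR alpha targets, 25 increased and 0 decreased (0.471% and 0.191% over all genes tested). Their median log2 fold change was 0.76. Without black652 and black684, 20 of 66 increased (0.34% over all genes tested) and the median was 0.74. The list was written with earlier results of these data known. It overlaps the lists above, so some of its genes are counted there too. Vnn1, a pantetheinase, was at 110, 114, 60.7 and 99.7 CPM in Fatp2-/- livers and at 14.5, 20.6, 11.3 and 14.1 CPM in control livers (log2 fold change 2.67, S.E. 0.24). Retsat, which saturates all-trans-retinol, was at 782, 982, 637 and 553 CPM in Fatp2-/- livers and at 96.6, 122, 102 and 72.5 CPM in controls (log2 fold change 2.91, S.E. 0.24). Slc16a13, a monocarboxylate transporter, was at 10.7 ± 1.46 CPM in Fatp2-/- livers and 2.2 ± 0.84 CPM in control livers (log2 fold change 2.27, S.E. 0.28). Adam11, a catalytically inactive ADAM protein, and Chrna2, a nicotinic receptor subunit, rose by 2.75 and 2.44, and passed in every fit with a library left out. Krt23, a keratin, increased by 3.35 (edgeR adjusted p = 0.0156), but its adjusted p was up to 0.0705 without black643 or black656, and it did not pass in limma-voom. Ppara itself was at 130, 121, 62.9 and 165 CPM in Fatp2-/- livers and at 117, 145, 74.7 and 50.4 CPM in control livers, which overlapped (log2 fold change 0.31, edgeR adjusted p = 0.708).

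**Figure D3:**
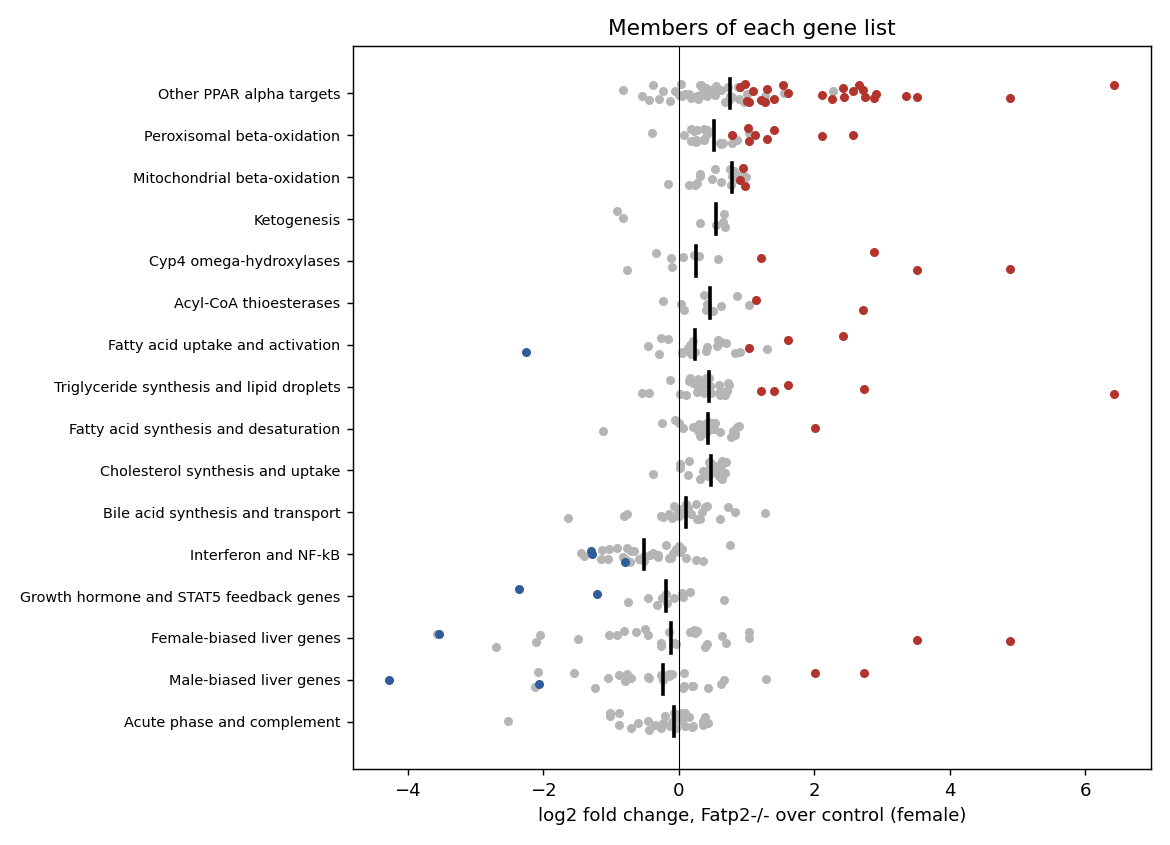
Each point is a tested gene of a list, placed by its log2 fold change in female livers, Fatp2-/- over control; red marks genes that increased, blue genes that decreased, grey the others, and the black bar is the list's median. Over the 16 lists drawn, the medians run from -0.51 for the interferon and NF-kB genes to 0.79 for mitochondrial beta-oxidation, against -0.02 over all genes tested.

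Several of the largest increases belonged to none of these routes. Mup5, a major urinary protein that binds pheromones, was at 1678, 1273, 2534 and 5003 CPM in Fatp2-/- livers and at 5.41, 17.7, 12.1 and 80.2 CPM in control livers (log2 fold change 6.51, S.E. 0.89, edgeR adjusted p = 0.00564). It was 7.28 without black652 and black684, the highest library of each group. Mup3 and Mup21 were lower in every Fatp2-/- liver than in any control liver but did not pass (log2 fold changes -2.13 and -2.08, edgeR adjusted p = 0.082 and 0.232), and reads of this family may be shared among its members. Slc39a5, the zinc transporter ZIP5, was at 60.2, 57, 80.3 and 43.8 CPM in Fatp2-/- livers and at 2.11, 2.1, 4.88 and 1.52 CPM in control livers (log2 fold change 4.50, S.E. 0.34), the only one of 21 tested zinc and metal genes that passed. Prom2, a membrane glycoprotein of cell protrusions, was at 3.4, 9.05, 4.79 and 7.65 CPM in Fatp2-/- livers and had 8 counts in all in the control livers, a ratio of 44.4 with a 95% counting interval of 22.3 to 104. It lies near Slc27a2 on chromosome 2 (134923090 to 134938052) and was the single gene of 190 tested within 10 Mb, Slc27a2 left out, that passed. Over all genes tested, 0.471% increased and 0.191% decreased. Whether its place near Slc27a2 had a part in the change of Prom2 was not tested. Serinc2, a serine incorporator, Adra2a, the alpha-2A adrenergic receptor, Sema5b, a semaphorin, and Gal3st1, which sulfates glycolipids, rose by 2.95, 3.19, 2.71 and 2.46, and Esrrg, an orphan nuclear receptor, by 1.61. Tpm2, a tropomyosin of muscle, was at 21.3, 20.8, 14.6 and 27.9 CPM in Fatp2-/- livers and at 4.68, 4.4, 5.51 and 3.21 CPM in control livers, so that it was high in all 4 Fatp2-/- livers and not in black652 alone. The other 16 skeletal muscle markers summed to 1.58 to 2.38 CPM in black631, black643 and black634 and to 1.95 to 21.7 CPM in the controls.

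The decreases were fewer. Serpina12, the adipokine vaspin, was at 2.89, 1.85, 7.53 and 5.55 CPM in Fatp2-/- livers and at 45.2, 90.4, 51.5 and 159 CPM in control livers (log2 fold change -4.27, S.E. 0.51, edgeR adjusted p = 0.00242). Lrtm1, a leucine-rich repeat membrane protein, was at 4.03, 6.93, 2.8 and 2.83 CPM in Fatp2-/- livers and at 36.4, 30.7, 60.4 and 38.6 CPM in control livers (log2 fold change -3.33, S.E. 0.32). The unnamed gene MGP_C57BL6NJ_G0006447 on chromosome 3 fell by as much, to 9.34 ± 3.23 CPM in Fatp2-/- livers against 94.1 ± 58.8 CPM in control livers. Sdr9c7, a short-chain dehydrogenase related to the retinol dehydrogenases, was at 25.1, 21.9, 22.3 and 23.2 CPM in Fatp2-/- livers and at 69.7, 61.9, 66.7 and 88.6 CPM in control livers (log2 fold change -1.63, S.E. 0.15). Slc34a2, a sodium-phosphate cotransporter, was at 1.58 ± 0.511 CPM in Fatp2-/- livers and 8.45 ± 2.37 CPM in control livers (log2 fold change -2.43, S.E. 0.30). Sult5a1, a sulfotransferase, was at 8.28, 10.2, 9.83 and 16.9 CPM in Fatp2-/- livers and at 52.5, 29.4, 60.6 and 46.9 CPM in control livers (log2 fold change -2.06, S.E. 0.27). Ntrk2, the BDNF receptor, was at 1.3, 4.56, 1.68 and 1.02 CPM in Fatp2-/- livers and at 28.2, 17.8, 46.9 and 5.22 CPM in control livers (log2 fold change -3.54, S.E. 0.64, edgeR adjusted p = 0.0319), with an adjusted p of up to 0.13 when black631, black634, black652, black656 or black659 was left out, and 0.123 in limma-voom. Cela1, an elastase, was at 14.9, 13.7, 15.1 and 15.9 CPM in Fatp2-/- livers and at 28.1, 44, 39.8 and 66.6 CPM in control livers (log2 fold change -1.58, S.E. 0.23). It is one of the exocrine pancreas markers, and the other 17 summed to 0.792 to 1.87 CPM in Fatp2-/- livers and 0.725 to 7.06 CPM in control livers; their part in the result was not tested.

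Genes linked to growth hormone and sex bias moved in both directions. Cish, a feedback inhibitor that STAT5 induces, was at 2.95, 7, 5.1 and 6.52 CPM in Fatp2-/- livers and at 36.9, 35.1, 14.8 and 23.2 CPM in control livers (log2 fold change -2.35, S.E. 0.33, edgeR adjusted p = 0.00645). It passed whichever female library was left out, but not in 1 fit over all 16 mice (-2.34, S.E. 0.92, edgeR adjusted p = 0.23). Onecut1, a liver transcription factor responsive to growth hormone, was at 18.6 ± 2.3 CPM in Fatp2-/- livers and 42.8 ± 14.8 CPM in control livers (log2 fold change -1.20, edgeR adjusted p = 0.0329, and 0.0537 without black652 and black684). Of 13 tested genes of this feedback list 2 decreased and 0 increased, and Socs3, Igf1 and Bcl6, which did not pass, overlapped between the groups. Onecut1 also failed when black631, black643, black634, black652 or black659 was left out, with adjusted p of up to 0.131, and in the fit over all 16 mice (0.398). Among 30 tested female-biased genes 2 increased, Cyp4a14 and Cyp4a10, and 1 decreased, Ntrk2. Among 30 tested male-biased genes 2 increased, Fitm1 and Elovl3, and 2 decreased, Serpina12 and Sult5a1. In these data Sult5a1 was not higher in males: it averaged 20.9 CPM in male controls (normalized over all 16 libraries) and 47.4 CPM in female controls (normalized over the females). Elovl3, a very long-chain fatty acid elongase, was at 24.2, 27.2, 20.4 and 21 CPM in Fatp2-/- livers and at 3.49, 6.31, 2.79 and 10.5 CPM in control livers (log2 fold change 2.01, edgeR adjusted p = 0.0231), with an adjusted p of up to 0.0988 when 1 of 6 single libraries (any but black676 and black684) was left out.

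Interferon regulatory factors were lower. Irf5 was at 16.5, 14.3, 16.7 and 21.7 CPM in Fatp2-/- livers and at 48.7, 37.3, 49.6 and 34.8 CPM in control livers (log2 fold change -1.30, S.E. 0.18, edgeR adjusted p = 0.00564), and passed whichever library was left out. Irf7, the master regulator of type I interferon genes, was at 48.9, 53.7, 56.2 and 40.5 CPM in Fatp2-/- livers and at 81.4, 86, 91.5 and 87.2 CPM in control livers (log2 fold change -0.80, edgeR adjusted p = 0.0329), with an adjusted p of 0.086 without black652 and black684 and of up to 0.14 when any single library but black684 was left out. Tifa, an adaptor of NF-kB signalling, decreased by 1.27 on the log2 scale in Fatp2-/- livers (edgeR adjusted p = 0.0157, and 0.052 without black652). Of 37 tested genes of the interferon and NF-kB list 3 decreased and 0 increased, and without black652 and black684 1 decreased. In that list 8 had a log2 fold change above 0 (47.2% over all genes tested) and the median was -0.51. Rtp4 and Xaf1, interferon-induced genes outside that list, decreased by 0.81 and 1.03 on the log2 scale in Fatp2-/- livers (edgeR adjusted p = 0.0179 and 0.0329), but not without black652 and black684 (0.0794 and 0.13). Isg15, Mx1 and Mx2, which interferon induces, were lower in every Fatp2-/- liver than in any control liver without passing (edgeR adjusted p = 0.163, 0.199 and 0.185). Markers of Kupffer cells and macrophages, which express Irf5, summed to 585 to 760 CPM in Fatp2-/- livers and 672 to 1245 CPM in control livers (CPM normalized over all 16 libraries), and their part in these values was not tested.

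Smaller increases were spread over other lipid and detoxification genes. Ephx2, the soluble epoxide hydrolase, was at 773, 831, 682 and 569 CPM in Fatp2-/- livers and at 289, 290, 381 and 217 CPM in control livers (log2 fold change 1.28, S.E. 0.21). It was the only one that passed of 38 tested genes in the arachidonic acid list, and its adjusted p was up to 0.0948 with a single library left out. That list leaves out the Cyp4a genes counted above. Of the 38, 18 had an unadjusted edgeR p under 0.05 (1542 of all 13601 tested), and DESeq2 called 5 (287 of all). Every Fatp2-/- liver was above every control liver in 7 of them and below in 3 (3.72% and 3.24% over all genes tested). Abcg2, an efflux transporter of the canalicular membrane, was at 36.9, 46, 50.5 and 42.9 CPM in Fatp2-/- livers and at 22, 18.4, 20.4 and 17.5 CPM in control livers (log2 fold change 1.17, S.E. 0.14), and passed whichever library was left out. Ucp2, a mitochondrial carrier, was at 182, 161, 239 and 174 CPM in Fatp2-/- livers and at 93.9, 57.6, 68.7 and 40 CPM in control livers (log2 fold change 1.54, S.E. 0.25), and failed without black631, black634 or black659 (adjusted p up to 0.0772). In each of these genes the groups stood clearly apart. Sult2a7, a sulfotransferase with close copies, was at 31.1, 13.7, 12 and 9.63 CPM in Fatp2-/- livers and at 2.77, 4.91, 5.86 and 4.25 CPM in control livers (log2 fold change 1.90, edgeR adjusted p = 0.047), with adjusted p of up to 0.149 when any single library but black652 was left out, and 0.101 in limma-voom. Of 13 tested sulfotransferases 1 increased and 1, Sult5a1, decreased, and of 29 tested retinol genes 2 increased (Retsat and Dhrs4) and 1, Sdr9c7, decreased. Dhrs4 failed when any of 6 single libraries was left out (adjusted p up to 0.175) and without black652 and black684 (0.108). Slc16a11, a monocarboxylate transporter, Gstt2, a glutathione transferase, Aadat, an aminotransferase of kynurenine, and the thioesterase gene Them7 increased by 1.49, 1.01, 1.01 and 1.13 on the log2 scale, each failing when at least 2 single libraries were left out. At low levels, Evc2, a ciliary protein, was at 1.99, 1.39, 1.68 and 1.59 CPM in Fatp2-/- livers and at 6.72, 3.76, 9.41 and 6.02 CPM in control livers (log2 fold change -1.96, S.E. 0.29), with an adjusted p of 0.0533 without black643. Inhba, a subunit of activin, and Col5a3, a collagen chain, fell by 1.54 and 1.18 on the log2 scale in Fatp2-/- livers, and each failed when any of 3 single libraries was left out (adjusted p up to 0.0753 and 0.0577).

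Other liver functions showed few or no calls in edgeR. In cholesterol synthesis and uptake 0 of 24 tested genes passed, 5 had an unadjusted p under 0.05 and DESeq2 and limma-voom called 0. Of the 24, 23 nevertheless had a log2 fold change above 0 (47.2% over all genes tested). Their median was 0.47 (edgeR adjusted p = 0.259 for the lowest, Hsd17b7). In bile acid synthesis and transport 0 of 25 passed, 6 had an unadjusted p under 0.05 and DESeq2 called 1. Among the xenobiotic Cyp1, Cyp2 and Cyp3 genes 0 of 27 passed, 7 had an unadjusted p under 0.05 and DESeq2 called 3. Without black652 and black684, 1 of the 27 increased, Cyp2b13 (log2 fold change 1.04, edgeR adjusted p = 0.0133). In the acute phase and complement 0 of 31 passed, 7 had an unadjusted p under 0.05 and DESeq2 called 3. The circadian clock had 0 of 26 with 1 at an unadjusted p under 0.05 and 0 in DESeq2, and glucose handling had 0 of 28 with 3 and 2. Without black652 and black684, 1 of 29 tested genes of glucose handling increased. Limma-voom called 0 in each of these lists. Of all 13601 genes tested, 1542 had an unadjusted p under 0.05, and DESeq2 called 287 and limma-voom 86. Nnt, a mitochondrial gene that differs between C57BL/6 substrains, was at 220 to 268 CPM in Fatp2-/- livers and at 107 to 213 CPM in control livers (edgeR adjusted p = 0.369), so it was expressed in all 8.

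DNA at the start of a few of these genes is shown because STAT5 and PPAR alpha are known to bind the motifs searched for. RefSeq promoter windows on GRCm38.p6 (250 bases before to 50 after the start) were found for 65 of the 90 genes. The STAT site TTCNNNGAA, searched on both strands, was present in 3 of 21 decreased genes with a window and 0 of 44 increased genes. It was present in 9.55% of all genes with a window and 8.44% of the tested genes with one. Cish (chr9:107296639-107296688, plus strand) held it in 2 places, in capitals, beginning at its start site and 11 bases after it:

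Cish: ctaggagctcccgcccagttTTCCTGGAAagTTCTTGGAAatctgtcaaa

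The direct repeat AGGTCANAGGTCA, to which PPAR alpha binds with its partner RXR, was searched on both strands with up to 2 mismatches. It was found in 5 of 44 increased genes (11.4%), 1 of 21 decreased genes (4.76%), 4.4% of all genes with a window and 3.87% of the tested genes with one. The increased genes Aadat and St3gal6 and the decreased gene Serpina12 also held a match. The matches of Mogat1 (chr1:78511001-78511029, plus strand), Cd36 (chr5:17835939-17835967, minus strand) and Slc39a5 (chr10:128400634-128400662, minus strand), 3 genes that passed whichever library was left out, are in capitals and read in the direction of the gene. Those of Cd36 and Slc39a5 lie on the strand opposite to the gene, so their letters are the reverse complement of the repeat:

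Mogat1: cagaattcAGGTAAAAAGTCAggctggtg

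Cd36: tggttctcTGGCCTCTGACTTacttggat

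Slc39a5: gcagagacTGACTTTTGACCCcccccatc

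The interferon element GAAANNGAAA was in 1 increased gene, 0 decreased genes, 3.99% of all genes with a window and 3.68% of the tested genes with one. A match is only a description of the letters in a window, and windows are short.

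Male and female changes were compared in 1 fit of all 16 mice. Of the 90 genes, which were chosen by their change in females, 81 had a log2 fold change of the same sign in males. For 39 of the 90 the unadjusted edgeR p of the difference between the sexes was under 0.05, against 860 of all 14079 genes tested. For 1 of the 14079 genes (0.0071%) the difference passed after adjustment. That gene was Cyp4a14, at 2543 ± 786 CPM in female Fatp2-/- livers and 84.5 ± 39.9 CPM in female control livers, and at 1578 ± 379 CPM in male Fatp2-/- livers and 3.87 ± 1.05 CPM in male control livers (S.D., n = 4 each, normalized over all 16 libraries). Its log2 fold change was 4.91 in females and 8.67 in males, a difference, female minus male, of -3.76 (S.E. 0.46, edgeR adjusted p = 0.00344). Cish varied widely among males, at 12.8 ± 16.1 CPM in male Fatp2-/- livers and 4.46 ± 6.95 CPM in male control livers. Each S.D. exceeded its mean, and the male log2 fold change was 1.49 (S.E. 0.92). For Cish the difference between the sexes did not pass (-3.83, S.E. 1.30, edgeR adjusted p = 0.765).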

How the data were processed

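The authors prepared RNA-Seq libraries from liver, mapped them with TopHat2 (2.0.12, running Bowtie2 2.2.3) and counted reads with HTSeq 0.6.1 in union mode, which leaves out reads that overlap 2 genes. They deposited read counts per gene, which are not normalized, and FPKM values, in which the authors scaled the counts by gene length and depth; FPKM was used only to compare levels between genes. The methods name GRCm38, whereas identifiers and coordinates in the table are of a C57BL/6NJ annotation; the strand setting is not given in the sources used here. The table held 41096 genes after 4 blank rows were left out. Library totals are counts assigned to genes.

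With R 4.3.3 and edgeR 4.0.16, low genes were removed by filterByExpr (at least 10 counts, 15 in total), TMM factors were computed, and the quasi-likelihood test was run over 4 Fatp2-/- and 4 control females, with Benjamini-Hochberg adjustment over all 13601 genes. S.E. was obtained as the size of a log2 fold change over the root of its F statistic. The difference between the sexes was tested in 1 fit over 16 mice (14079 genes). DESeq2 1.42.0, limma 3.58.1, other normalizations and filters, and fits without each library were alternatives. The steps were tested on simulated data.

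Per-mouse values were given for Slc27a2, for genes among the 12 largest increases and 12 largest decreases without overlap and with mean log2 CPM of at least 0, and for up to 5 passing members of each list; other passing genes, and list members that did not pass (by smallest p), were given more briefly. Per-mouse values of Vnn1, Ucp2, Tpm2, Cela1 and Ppara were added beyond that rule. Albumin, Cyp3a11, Plin2 and the other Slc27 genes were named after their values were seen. The members, gene lists and promoter motifs were chosen with earlier results of these data known, and lists were described by counts and medians without a test. The table holds no fold changes or p-values of the authors. Some genes of the lists are counted but not reported here by name.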

Additional observations from a re-analysis of the deposited data

Results flagged for a closer look

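The change of Cyp4a14 differed between the sexes by the test of the difference itself (female minus male -3.76 on the log2 scale, S.E. 0.46, edgeR adjusted p = 0.00344). In 148 groups of 4 female livers checked for a value far from the other 3, 11 had one, where chance gives about 1 in 20. Among Fatp2-/- livers these were Slc16a11 in black634 (192 CPM), Ech1 in black631 (647 CPM) and MGP_C57BL6NJ_G0006447 in black652 (14.1 CPM), and among control livers Mup5 in black684 (80.2 CPM). The others were marker sums on CPM normalized over all 16 libraries. Skeletal muscle markers summed to 309 CPM in the Fatp2-/- liver black652 and to 23 CPM in the control liver black684. Exocrine pancreas markers summed to 13.8 CPM in the Fatp2-/- liver black643, below the other 3. Kupffer cell and macrophage markers summed to 760 CPM in the Fatp2-/- liver black631, and stellate cell and fibroblast markers to 775 CPM in the Fatp2-/- liver black634. Lymphocyte markers summed to 68.8 CPM in both the Fatp2-/- liver black643 and the control liver black656.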

How the results depend on the processing

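Of 985 comparisons of a named gene with an alternative, 823 kept the call, 162 lost it and 0 changed direction. Of 55 named genes, 28 passed under every alternative that tested them. Among these 28, Mogat1, Prom2 and Adra2a were not tested where at least 10 counts were asked for in every library. The 64 increased and 26 decreased genes became 129 and 126 with no filter on low counts, 175 and 112 with DESeq2, 136 and 44 in 1 fit over all 16 mice, and 34 and 15 when a change of 1.5 or more on the log2 scale was also asked for. With limma-voom and sample quality weights 49 genes decreased. Leaving out 1 library at a time gave 31 to 69 increased and 15 to 36 decreased genes. The log2 fold change of Slc27a2 passed in every fit. The number of genes whose change differed between the sexes was 1 in the main analysis, 18 with no filter on low counts and 31 with DESeq2. Cyp4a14 was among them each time. The causes were not tested. No paired analysis was possible because the labels give no replicate numbers shared between genotypes. Without black652 and black684, 9 genes passed that had not before, of which Sult2a6 and Serpina3f decreased most (-2.42 and -3.21). The control library black684 had the lowest depth (10657034 counts) and yet the most genes with 1 to 5 counts. These were 8892 genes, against 3812 to 6801 in the rest of the series. Its values for genes with few reads are uncertain for both reasons. With 4 mice a group, a change that did not pass is not shown to be absent.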
